A study of Sus scrofa with 9 samples.

Results

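The genes described here build and remodel the extracellular matrix of the liver. They are a list of 36 symbols: 16 chains of collagen, 6 elastic fibre proteins and matrix glycoproteins, 3 small proteoglycans, 3 cross-linking oxidases, 2 matrix metalloproteinases, 3 inhibitors of these enzymes, the ligand TGFB1, and 2 contractile proteins of activated mesenchymal cells. The list was taken by symbol, by a rule that uses no measured value, but it was drawn up with earlier results of these data known. Of these 36 genes, 35 were found among the 25918 genes of the deposited table, all 35 were above 0 in each of the 9 libraries, and all 35 passed the filter used for testing, a mean of at least 0.5 FPKM over the 9 libraries. No row carried the symbol COL6A1.

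Liver RNA of 9 Wujin pigs, a highland breed of Southwest China, was sequenced, with 1 library per pig and 3 pigs in each of 3 groups. All pigs entered the trial at 35 days of age and received the same basic diet with 5 prefeeding days and 30 days of the formal trial. The low-iron group received no iron on top of this diet, the control group received 100 mg/kg and the high-iron group 200 mg/kg of added iron as iron glycinate. The study asks how the iron content of the diet changes the liver transcriptome. The trial used male and female pigs, and the labels do not give the sex of a library. Libraries are named by group and animal number: low-iron 2, 3 and 7, control 4, 5 and 6, and high-iron 2, 7 and 8. Unless stated otherwise, 9 values of a gene are given in this order.

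Expression is in FPKM, fragments per kilobase of transcript scaled to the number of mapped fragments, which allows levels of different genes to be set side by side. As read counts are not part of the table, only the spread among the 3 pigs of a group shows how precise a level is. Differences were tested with limma on log2(FPKM + 0.1) over 12584 genes, and log2 fold changes are on that scale, which understates the change of genes with low FPKM. A gene is said to be called when its fold change was at least 2 and its unadjusted p under 0.05, the thresholds of the study. No member reached a Benjamini-Hochberg adjusted p under 0.05 in any comparison, so a call here marks an unadjusted difference.

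The liver matrix is thin in health. Fibrillar collagens, with types I and III as the main ones, form the fibres of portal tracts and vessel walls. Type IV collagen, together with laminins, forms basement membranes, and collagen XVIII is unusual in being made largely by hepatocytes, as is plasma fibronectin. Most other collagens come from stellate cells, portal fibroblasts and vascular cells. Newly made collagen is trimmed by proteases and cross-linked by lysyl oxidases. It is cleaved by matrix metalloproteinases, and these enzymes are held back by the TIMP proteins. TGF-beta is the best known signal that raises collagen production in stellate cells.

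All collagens share a coding feature that can be read in the genome. The triple helix needs a glycine in each repeat of the form Gly-X-Y, and in the fibrillar collagens many exons hold a whole number of these repeats. One exon of 54 bases, 6 triplets of 9 bases, is shown for each chain of types I and III, which carried the highest levels among the fibrillar collagens. Capitals mark the glycine codons. They were read 5′ to 3′ on the coding strand of Sscrofa11.1, from NCBI's genome and RefSeq annotation, at chr12:26393098-26393151 on the minus strand for COL1A1, chr9:74184693-74184746 on the plus strand for COL1A2 and chr15:93571887-93571940 on the plus strand for COL3A1.
COL1A1: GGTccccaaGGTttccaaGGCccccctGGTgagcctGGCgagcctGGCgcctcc
COL1A2: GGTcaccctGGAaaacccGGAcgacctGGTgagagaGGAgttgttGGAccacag
COL3A1: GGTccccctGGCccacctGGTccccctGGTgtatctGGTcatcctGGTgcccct
A proline codon stood at the Y position, where proline is commonly hydroxylated, in 3 of the 6 triplets of the COL1A1 and COL1A2 exons and in 5 of the 6 of COL3A1. Each exon was picked as a 54-base exon with the most proline codons at Y, so these counts are above those of the whole chain. Over all exons made only of Gly-X-Y triplets, the share of triplets with proline at Y was 33.3% in COL1A1, 28.3% in COL1A2 and 42.0% in COL3A1. Over whole transcripts, 42 of the 51 coding exons of COL1A1, 43 of 53 of COL1A2 and 42 of 51 of COL3A1 were made only of Gly-X-Y triplets, and 21, 23 and 24 of them were 54 bases long. The other families varied. COL16A1 had 35 such exons among 70, 11 of them of 54 bases, and COL6A2 had 15 among 31. COL4A1 had 11 among 54, 2 of them of 54 bases, and COL12A1, whose triple helix is short, had 6 among 65. Exons that begin inside a triplet were not counted, so a low count does not by itself mean few Gly-X-Y repeats.

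Fibronectin, the glycoprotein FN1, was the highest of the 35 genes by far, with a mean of 586 FPKM over the 9 libraries and a range from 384 in low-iron 7 to 803 in low-iron 3. COL18A1 came next with a mean of 86.6 FPKM. COL3A1 with 68.6, POSTN with 64.1, SPARC with 62.4 and ACTA2 with 57.7 followed, and these 4 means lay closer together than the libraries of any of the 4 genes. COL1A1 had a mean of 34.9 FPKM and COL1A2 of 21.1. At the other end, COL4A4 with 0.550, LOXL1 with 0.650 and COL15A1 with 0.872 FPKM were the only members with a mean under 1 FPKM. All 35 genes together made up between 0.199% and 0.390% of the FPKM of a library.

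The range across pigs differed strongly between members. COL18A1 varied least, 1.5-fold from the lowest to the highest library, and FBLN5, BGN, COL5A2, COL14A1, COL4A2 and POSTN also stayed below 2-fold. LUM varied most, 15.1-fold, followed by MMP2 with 11.7-fold and ELN with 10.4-fold. COL1A1 and TIMP1 spanned 8.67-fold and 8.83-fold. The heat map of the members by library shows that the deviations did not follow the diet groups alone.

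**Figure D1:**
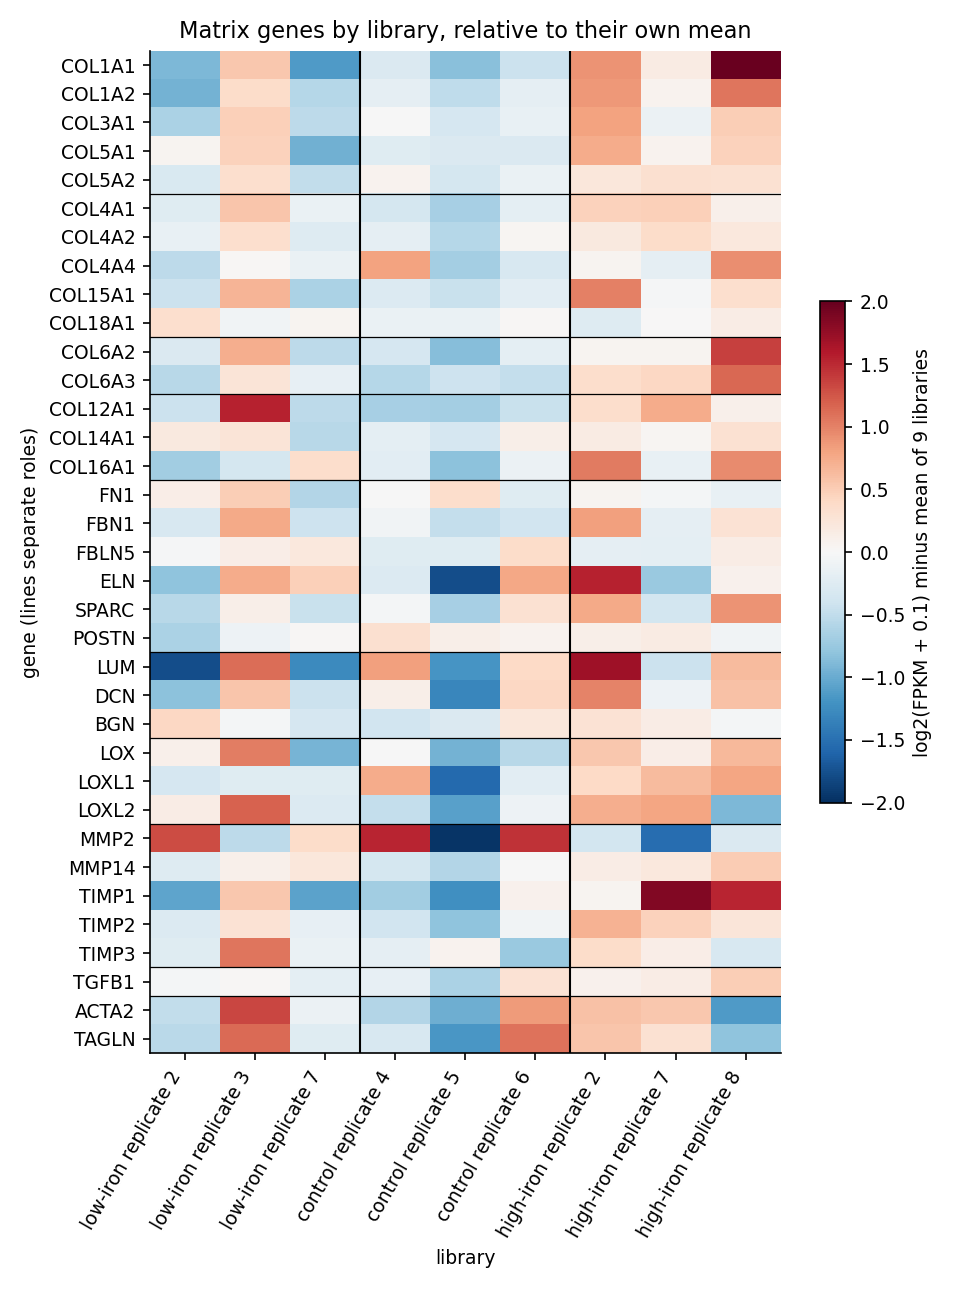
Each row is a matrix gene and each column a library, and colour gives log2(FPKM + 0.1) minus the gene's mean over the 9 libraries. Horizontal lines separate the roles and vertical lines the groups, and the scale ends at 2 in either direction. High-iron 2 and 8 and low-iron 3 are red in most rows, and control 5, the lowest library for 19 members, is blue in most.

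In high-iron against control, 3 of 15 collagens and 1 inhibitor of metalloproteinases were called. COL1A1, the main chain of type I collagen, COL6A3, the large chain of type VI collagen, COL16A1, a fibril-associated collagen, and TIMP1, a metalloproteinase inhibitor, were called higher, and no member was called lower. These 4 of 35 are 11.4%, against 1.57% of all genes tested that were called and 1.27% that were called higher. With median-of-ratios scaling, which lowers the median of all genes from 0.10 to -0.03, the calls over all genes changed from 160 higher and 37 lower to 96 higher and 57 lower, 2 members in place of 4 were called, and 30 of 35 were above 0. All 15 collagens had a log2 fold change above 0, from 0.05 for COL18A1 to 1.53 for COL1A1, with a median of 0.75, against a median of 0.10 over all genes tested. Over all 35 members the median was 0.62, and 31 were above 0 (88.6%, against 65.0% of all genes).

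At an unadjusted p under 0.05, 10 of the 35 members were higher and 0 lower by limma, 28.6% against 5.59% of all genes in either direction and 4.78% higher. For 13 members (37.1%, against 9.14% of all genes) every high-iron pig lay above every control pig. They were COL1A1, COL1A2, COL5A1, COL5A2, COL4A1, COL4A2, COL15A1, COL6A2, COL6A3, COL12A1, LOX, MMP14 and TIMP2. The smallest adjusted p of a member was 0.885 by limma with Benjamini-Hochberg adjustment. Only 1 of all 12584 genes (0.00795%) passed an adjusted p of 0.05.

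**Figure D2:**
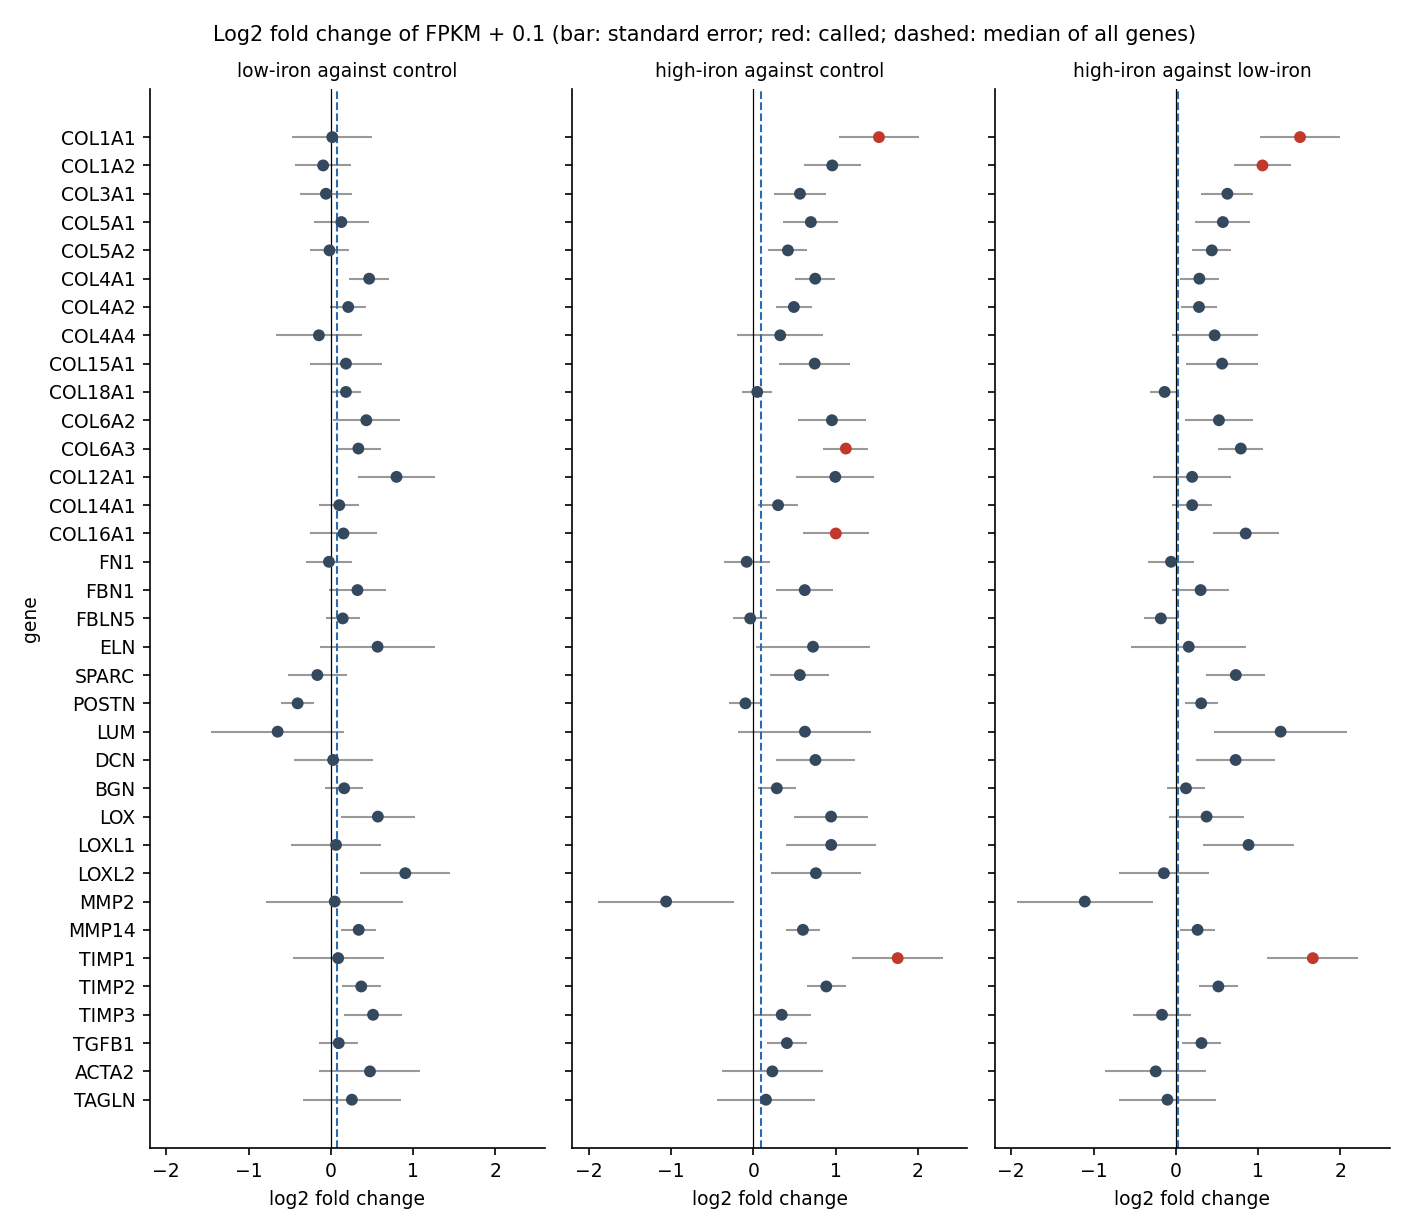
Log2 fold change (horizontal axis, on the log2(FPKM + 0.1) scale) of each matrix gene (rows) in the 3 comparisons, where bars are standard errors from limma, red points are called, and the dashed line is the median of all genes tested. Against control, the high-iron points lie right of 0 for 31 of 35 genes, with COL1A1 and TIMP1 farthest right and MMP2 farthest left.

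Type I collagen is the main fibre-forming collagen, a trimer of COL1A1 and COL1A2 chains. COL1A1 was at 14.7, 39.7 and 12.4 FPKM in the low-iron, 22.3, 15.4 and 20.4 in the control and 51.3, 30.6 and 107.5 in the high-iron pigs. Each high-iron pig exceeded each control pig, high-iron 8 by the widest margin, whereas low-iron 3 lay inside the high-iron range. The group means were 22.3 ± 15.1 FPKM in the low-iron, 19.4 ± 3.60 in the control and 63.2 ± 39.8 in the high-iron group (SD, n = 3). High-iron exceeded control by a log2 fold change of 1.53 (SE 0.49), a fold of 2.88, with a limma p of 0.010 and an adjusted p of 0.885. Against low-iron the log2 fold change was 1.51 (SE 0.49), with a limma p of 0.0107 and an adjusted p of 0.615, although the groups overlapped. Both calls held in every alternative run, from 1.05 without high-iron 8 to 1.95 without high-iron 7 against control.

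COL1A2, the second chain of type I collagen, was at 9.87, 24.6 and 12.8 FPKM in the low-iron, 16.9, 13.4 and 16.8 in the control and 34.9, 20.0 and 40.3 in the high-iron pigs. High-iron 7 lay just above the control range, while high-iron 2 and 8 were the highest of all 9 libraries. Against control the log2 fold change was 0.96 (SE 0.34, limma p 0.0182, adjusted p 0.888), under the fold threshold, and it was called in 4 of 19 alternatives, at up to 1.26 without high-iron 7. It was called higher against low-iron, at 1.05 (SE 0.34, limma p 0.0113, adjusted p 0.615), and this call was lost without low-iron 2 (0.77), low-iron 7 (0.96), high-iron 2 (0.95) or high-iron 8 (0.85), and with EIF1AY as a covariate (0.88). The ratio of COL1A1 to COL1A2 on the FPKM scale was 2.67 in high-iron 8 and lay between 0.965 and 1.62 in the other libraries, so the level of COL1A1 in high-iron 8 was not matched by its partner chain.

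COL1A2 and COL3A1 are among the 5 members with the letters TATAA, the core of a TATA box, in the 300 bases around the annotated start (250 before, 50 after, either strand). The others were COL6A3, TIMP3 and ACTA2. These letters were found in 20.6% of the same windows of 20664 genes. The 150 bases before the COL1A2 start, chr9:74174334-74174483 on the plus strand of Sscrofa11.1 (NCBI), are shown with TATAA and with ATTGG, the reverse complement of CCAAT, in capitals, because both are textbook promoter elements and stand close together here.
COL1A2 upstream: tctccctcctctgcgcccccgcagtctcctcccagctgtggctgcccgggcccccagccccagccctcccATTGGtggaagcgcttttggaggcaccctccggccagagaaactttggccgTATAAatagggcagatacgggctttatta
CCAAT on either strand was held by 12 of the 35 members (34.3%), COL1A1 among them, against 35.7% of all genes, GGGCGG, the letters of a GC box, by 18 (51.4%, against 48.9%), and CAGAC, the core of a SMAD element, by 18 (51.4%, against 44.6%). The shares of members were near those of all genes. A match of letters is a description and not a binding site.

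COL3A1 forms type III collagen, which is mixed into type I fibres. It was at 41.7, 90.5 and 45.2 FPKM in the low-iron, 64.5, 51.3 and 58.5 in the control and 114.0, 60.2 and 91.6 in the high-iron pigs. Low-iron 3 and high-iron 2 and 8 were high, and high-iron 7 lay within the control range. Its log2 fold change against control was 0.57 (SE 0.31, limma p 0.101, adjusted p 0.932), and 0.36 without high-iron 2. The type I and type III chains together made up 29.0% of the summed collagen FPKM in low-iron 2, the lowest library, and 57.0% in high-iron 2, the highest.

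Type V collagen sits inside type I fibrils and limits their width. COL5A1 was at 4.03, 5.37 and 1.93 FPKM in the low-iron, 3.24, 3.15 and 3.14 in the control and 6.52, 4.05 and 5.38 in the high-iron pigs. Its partner COL5A2 was at 3.34, 5.29 and 2.94, then 4.38, 3.25 and 3.79, then 4.90, 5.23 and 5.13 FPKM. For both chains every high-iron pig lay above every control pig, but neither reached an unadjusted p under 0.05. COL5A2 lies on chr15:93611856-93981131 next to COL3A1 on chr15:93556914-93595678, on the opposite strand, and 3 other annotated genes overlap it.

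Collagen VI builds beaded filaments that link cells to the fibres. COL6A3 was at 2.45, 4.37 and 3.25 FPKM in the low-iron, 2.42, 2.70 and 2.6 in the control and 4.69, 4.87 and 8.19 in the high-iron pigs. The high-iron pigs lay above all 6 others, and the control pigs were close together. The mean was 5.92 ± 1.97 FPKM in the high-iron, 2.57 ± 0.146 in the control and 3.36 ± 0.961 in the low-iron group (SD, n = 3). Against control the log2 fold change was 1.12 (SE 0.27), with a limma p of 0.00182, the smallest of the members, and an adjusted p of 0.885. It fell under the fold threshold without high-iron 8 (0.87), with a pseudocount of 1 (0.92) and with median-of-ratios scaling (1.00). Against low-iron it was 0.79 (SE 0.27, limma p 0.0150, adjusted p 0.637), a value named here after it was seen.

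COL6A2 was at 7.43, 15.2 and 6.32 FPKM in the low-iron, 7.24, 5.03 and 7.94 in the control and 9.51, 9.49 and 23.8 in the high-iron pigs. All high-iron pigs were above the control pigs, but high-iron 8 stood far above the other 2, and the log2 fold change of 0.96 (SE 0.41, limma p 0.0403, adjusted p 0.892), named here after it was seen, was 0.52 without it. The gene was called in 4 of 19 alternatives, at up to 1.18. LOC100623720, a gene whose annotated product is the alpha-1 chain of collagen VI, is outside the list of symbols. It was at 7.89, 13.8 and 6.56, then 8.70, 5.99 and 8.23, then 12.6, 7.62 and 25.0 FPKM. Here too low-iron 3 and high-iron 8 were the highest, and high-iron 7 lay within the control range.

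Collagens XII, XIV and XVI bind to the surface of fibrils. COL16A1 was at 0.804, 1.05 and 1.76 FPKM in the low-iron, 1.16, 0.731 and 1.24 in the control and 2.92, 1.23 and 2.73 in the high-iron pigs. High-iron 2 and 8 were the highest libraries, but high-iron 7 lay inside the control range. Its log2 fold change against control was 1.00 (SE 0.40, limma p 0.0308, adjusted p 0.892), at the fold threshold, and the call was lost in 9 of 19 alternatives, among them leaving out control 5 (0.79), high-iron 2 (0.79) or high-iron 8 (0.84).
COL12A1 was at 1.58, 6.46 and 1.47 FPKM in the low-iron, 1.33, 1.30 and 1.54 in the control and 2.76, 3.67 and 2.32 in the high-iron pigs. The high-iron pigs were all above the controls, and the highest value belonged to low-iron 3. COL14A1 was at 8.18, 8.52 and 4.79, then 6.21, 5.62 and 7.71, then 7.99, 7.26 and 8.75 FPKM, with overlapping groups.

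**Figure D3:**
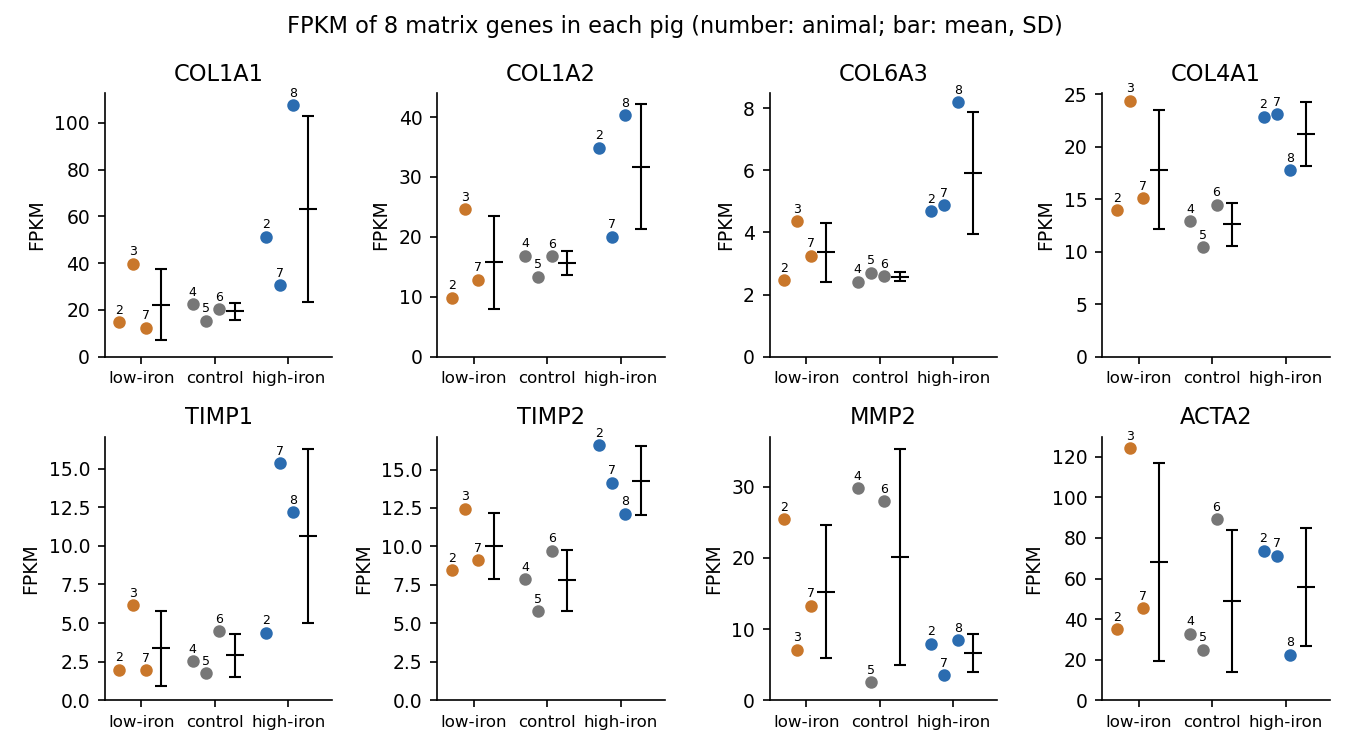
FPKM (vertical axis, linear from 0) of 8 matrix genes in each of the 9 pigs, where points carry the animal number, and bars give the mean and SD of the 3 pigs of a group. COL1A1, COL1A2, COL6A3, COL4A1 and TIMP2 have every high-iron pig above every control pig, while TIMP1 overlaps through high-iron 2, and MMP2 and ACTA2 spread widely within groups.

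Type IV collagen is the network of basement membranes, and its main heterotrimer is made of COL4A1 and COL4A2. COL4A1 was at 14.0, 24.4 and 15.1 FPKM in the low-iron, 12.9, 10.4 and 14.5 in the control and 22.9, 23.1 and 17.7 in the high-iron pigs. COL4A2 was at 11.3, 16.0 and 10.5, then 11.08, 8.49 and 13.0, then 14.5, 16.3 and 14.6 FPKM. In both genes the high-iron pigs lay above the control pigs, and low-iron 3 was as high as the high-iron pigs. The log2 fold change of COL4A1 against control was 0.75 (SE 0.24, limma p 0.00990, adjusted p 0.885). COL4A2, named here after its value was seen, had 0.49 (SE 0.22, limma p 0.0461, adjusted p 0.892), and 0.33 without control 5. The values of the pair in the high-iron against low-iron comparison were 0.29 and 0.28.

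The pair is arranged head to head on chromosome 11, COL4A1 on the minus strand and COL4A2 on the plus strand. The annotated COL4A2 gene begins within COL4A1, and 133 bases lie between the COL4A1 start and the next annotated COL4A2 exon past it. The bases between, chr11:76997410-76997542 on the plus strand of Sscrofa11.1 (NCBI), are shown because COL4A1 is read leftward from them and this COL4A2 exon rightward. Capitals mark CCAAT and GGGCGG, the latter also as its reverse complement CCGCCC.
COL4A1 to COL4A2: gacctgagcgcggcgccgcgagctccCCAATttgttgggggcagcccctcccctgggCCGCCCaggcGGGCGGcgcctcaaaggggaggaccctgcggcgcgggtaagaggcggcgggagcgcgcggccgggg
Counting by strand is not stated, so reads at such an overlap cannot be told apart.

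COL4A4 belongs to a rarer type IV trimer, best known from the kidney. It was at 0.324, 0.519 and 0.457 FPKM in the low-iron, 0.962, 0.281 and 0.389 in the control and 0.532, 0.436 and 1.05 in the high-iron pigs. Control 4 and high-iron 8 were high, and the groups overlapped in every comparison. Its log2 fold changes were 0.33 (SE 0.52, limma p 0.544) for high-iron against control, 0.47 (SE 0.52, limma p 0.385) for high-iron against low-iron and -0.15 (SE 0.52, limma p 0.786) for low-iron against control, with adjusted p of 0.994, 0.898 and 1.00. The first was 0.76 without control 4 and -0.0018 without high-iron 8, and the last was 0.29 without control 4. COL4A3, which overlaps it on the other strand, was at 0.139 to 0.496 FPKM, highest in the same control 4 and high-iron 8.

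COL15A1 and COL18A1 are basement membrane collagens with interrupted helices, and fragments of collagen XVIII give endostatin. COL15A1 was at 0.573, 1.36 and 0.482 FPKM in the low-iron, 0.648, 0.567 and 0.681 in the control and 1.71, 0.792 and 1.04 in the high-iron pigs, again with each high-iron pig above the controls. COL18A1 was at 108, 82.1 and 89.5, then 78.8, 78.7 and 87.6, then 72.2, 86.6 and 95.8 FPKM. Its highest library was low-iron 2 and its lowest high-iron 2, the reverse of COL3A1. Its share of the collagen FPKM was between 20.6% and 31.6% in the high-iron pigs, between 33.7% and 39.3% in the control pigs and between 25.2% and 47.4% in the low-iron pigs, where low-iron 3 lay inside the high-iron range. In FPKM its groups overlapped.

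Among elastic fibre proteins and glycoproteins, 3 of 6 had a log2 fold change above 0 in high-iron against control and none was called. FN1, which binds cells to collagen, was at 629, 803 and 384 FPKM in the low-iron, 572, 731 and 487 in the control and 594, 559 and 518 in the high-iron pigs, with the high-iron values inside the control range. FBN1, the core of microfibrils, was at 2.47, 5.37 and 2.32, then 2.96, 2.20 and 2.36, then 5.58, 2.73 and 3.85 FPKM. ELN, the elastin gene, was at 3.89, 11.7 and 9.60, then 5.66, 1.94 and 11.8, then 20.2, 4.08 and 7.34 FPKM. Elastin thus varied as much within a group as between groups.
FBLN5, which helps to assemble elastic fibres, was at 11.0, 12.3 and 12.9 FPKM in the low-iron, 9.39, 9.44 and 14.4 in the control and 9.83, 9.75 and 12.4 in the high-iron pigs. SPARC, a collagen-binding glycoprotein, was at 39.4, 62.7 and 42.7, then 56.5, 36.6 and 71.8, then 98.3, 45.2 and 108 FPKM. High-iron 2 and 8 held the highest SPARC levels, as they did for COL1A1 and COL1A2, and high-iron 7 lay within the control range. POSTN, or periostin, was at 40.9, 58.9 and 63.9, then 79.0, 68.2 and 66.1, then 68.4, 71.1 and 60.1 FPKM.

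LUM, DCN and BGN are small leucine-rich proteoglycans, which coat collagen fibrils. LUM was at 0.252, 2.51 and 0.395 FPKM in the low-iron, 2.01, 0.427 and 1.47 in the control and 3.79, 0.787 and 1.76 in the high-iron pigs. DCN, its neighbour at chr5:91678601-91713925, was at 5.71, 15.0 and 7.57, then 11, 4.05 and 13.6, then 20.4, 9.52 and 15.4 FPKM. Both neighbours were highest in high-iron 2, and the 3 lowest libraries of both were low-iron 2 and 7 and control 5. Against control, high-iron had log2 fold changes of 0.63 for LUM (SE 0.81, limma p 0.455, adjusted p 0.994) and 0.75 for DCN (SE 0.48, limma p 0.147, adjusted p 0.932). Without control 5 these were 0.03 and 0.23, and LUM had 0.09 without high-iron 2. BGN lay between 33.6 and 58.2 FPKM over all pigs, with overlapping groups.

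Lysyl oxidases start the cross-linking of collagen and elastin. LOX was at 1.78, 3.48 and 0.823 FPKM in the low-iron, 1.64, 0.809 and 1.10 in the control and 2.46, 1.82 and 2.65 in the high-iron pigs, with each high-iron pig above the controls. LOXL1 was at 0.435, 0.473 and 0.471, then 1.04, 0.130 and 0.487, then 0.790, 0.953 and 1.07 FPKM. LOXL2 was at 0.979, 2.10 and 0.700, then 0.599, 0.359 and 0.801, then 1.51, 1.57 and 0.421 FPKM. All 3 oxidases had a log2 fold change above 0 against control in the high-iron group, with a median of 0.94, and none reached an unadjusted p under 0.05.

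TIMP1 inhibits many matrix metalloproteinases and had the highest fold change of the 35 members. It was at 1.98, 6.15 and 1.95 FPKM in the low-iron, 2.54, 1.74 and 4.45 in the control and 4.37, 15.3 and 12.2 in the high-iron pigs. High-iron 7 and 8 stood above all other libraries, whereas high-iron 2 lay just below control 6, so the groups overlapped. The mean was 10.6 ± 5.65 FPKM in the high-iron, 2.91 ± 1.39 in the control and 3.36 ± 2.42 in the low-iron group (SD, n = 3). The log2 fold change was 1.75 (SE 0.55, fold 3.37, limma p 0.00921, adjusted p 0.885) against control and 1.67 (SE 0.55, limma p 0.0122, adjusted p 0.615) against low-iron. The second call was lost without high-iron 7 (1.31). For low-iron against control it was 0.09 (SE 0.55, limma p 0.875, adjusted p 1.00), and it was -0.44 without low-iron 3 and -0.22 without control 5.

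TIMP1 lies at chrX:42103251-42106289 on the plus strand, inside SYN1, a neuronal gene on the minus strand that did not exceed 0.116 FPKM in any library. The 150 bases before its annotated start, chrX:42103101-42103250 of Sscrofa11.1 (NCBI), are shown because TIMP1 had the highest fold change. They hold ATTGG, the reverse complement of CCAAT, and GTCTG, that of CAGAC, in capitals.
TIMP1 upstream: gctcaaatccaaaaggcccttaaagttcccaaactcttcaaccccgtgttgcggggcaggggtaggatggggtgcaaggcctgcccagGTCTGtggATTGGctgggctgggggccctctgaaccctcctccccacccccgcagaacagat

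TIMP2, which also takes part in the activation of MMP2, was at 8.48, 12.4 and 9.11 FPKM in the low-iron, 7.85, 5.78 and 9.73 in the control and 16.6, 14.1 and 12.1 in the high-iron pigs. All high-iron pigs were above the control pigs, and its log2 fold change was 0.89 (SE 0.24, limma p 0.00357, adjusted p 0.885), under the fold threshold. MMP14, the membrane-bound protease that activates MMP2, was at 10.2, 13.1 and 14.4, then 9.57, 8.12 and 12.2, then 13.6, 14.2 and 17.4 FPKM. It too did not overlap with control, with a log2 fold change of 0.60 (SE 0.21, limma p 0.0163, adjusted p 0.885). TIMP2 and MMP14 are named with a fold change after their values were seen. TIMP3, which is bound to the matrix, was at 15.5, 38.7 and 16.8, then 16.3, 19.3 and 11.0, then 23.9, 20.1 and 14.8 FPKM, with overlapping groups.

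MMP2, the gelatinase that cleaves denatured and type IV collagen, was the member farthest below control. It was at 25.4, 7.11 and 13.3 FPKM in the low-iron, 29.8, 2.56 and 28.0 in the control and 7.93, 3.51 and 8.41 in the high-iron pigs. Control 5 was the lowest library of all and control 4 and 6 the highest, so that the control group alone covered the whole range. The log2 fold change of high-iron against control was -1.06 (SE 0.83, limma p 0.229, adjusted p 0.945). It was -2.21 and called without control 5, -0.46 without control 4 and -0.51 without control 6. The ratio of TIMP1 to MMP2 on the FPKM scale was 0.551, 4.37 and 1.45 in high-iron 2, 7 and 8, against 0.0854, 0.679 and 0.159 in control 4, 5 and 6 and 0.0778, 0.865 and 0.147 in low-iron 2, 3 and 7.

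TGFB1, the ligand that drives collagen production, was at 7.29, 7.59 and 6.51 FPKM in the low-iron, 6.70, 4.79 and 9.16 in the control and 7.96, 8.27 and 10.6 in the high-iron pigs. Control 6 lay within the high-iron range, and no comparison of TGFB1 reached an unadjusted p under 0.05. ACTA2 and TAGLN are contractile proteins of smooth muscle and of activated stellate cells. ACTA2 was at 34.9, 124 and 45.3, then 32.9, 24.9 and 89.3, then 73.7, 71.3 and 22.5 FPKM, and TAGLN at 21.4, 68.3 and 26.3, then 24.8, 13.8 and 66.1, then 45.6, 38.6 and 17.7 FPKM. Both were highest in low-iron 3, and high-iron 8, the pig with the highest COL1A1, had the lowest ACTA2 of all. The log2 fold change of ACTA2 against control was 0.23 (SE 0.61, limma p 0.714, adjusted p 0.994), and its sign turned without control 5 (-0.14), without high-iron 2 (-0.06) and without high-iron 7 (-0.04), while it was 0.79 without high-iron 8 and 0.78 without control 6.

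Against the low-iron group, COL1A1, COL1A2 and TIMP1 were called higher in the high-iron group, and no member was called lower. These 3 of 35 are 8.57%, against 1.54% of all genes in either direction and 1.01% higher. In all 3 the groups overlapped, as low-iron 3 lay inside the high-iron range. A further member, COL6A3, was higher at an unadjusted p under 0.05, making 4 (11.4%, against 7.15%, or 4.03% higher), and limma gave 0 at an adjusted p under 0.05. The groups did not overlap for COL6A3, LOXL1 and TGFB1, 3 of 35 (8.57%, against 8.11% of all genes). A log2 fold change above 0 was found for 27 members (77.1%, against 53.6%), with a median of 0.31, against 0.03 over all genes. The collagens had a median of 0.52, and COL18A1 was the only one of 15 below 0. Low-iron 3 set much of the low-iron spread: without it the median of the members was 0.68 and 5 members were called, while the calls over all genes went from 194 to 333.

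In low-iron against control no member was called, against 0.882% of all genes, and 0 of 35 had an unadjusted p under 0.05 by limma, against 3.68%. The adjusted p of every member was 1.00 when rounded. The log2 fold changes were above 0 for 27 members (77.1%, against 62.7% of all genes), with a median of 0.15, against 0.08. They ran from -0.65 for LUM to 0.90 for LOXL2. Periostin, a protein of injured and remodelling tissue, was the single member whose groups did not overlap: the 3 low-iron pigs, at 40.9 to 63.9 FPKM, lay below the 3 control pigs, at 66.1 to 79.0 FPKM, which is 2.86% of the members and was found for 2.24% of all genes. No member had its low-iron pigs all above the control pigs, as 6.1% of all genes had. Leaving out low-iron 7 gave 2 called members, with 121 called among all genes in place of 111, and leaving out any other library gave 0. The comparisons share groups (both comparisons with control use the same 3 control pigs), so their values are not independent of each other.

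The pigs differed in the level of the matrix genes as a whole. For each library the median of the 35 deviations from the gene means was taken. It was -0.33, 0.46 and -0.28 on the log2 scale in low-iron 2, 3 and 7, -0.19, -0.67 and -0.11 in control 4, 5 and 6, and 0.40, 0.13 and 0.30 in high-iron 2, 7 and 8. Low-iron 3, not a high-iron pig, had the highest median, and control 5 the lowest. Over all genes tested the same medians lay between -0.14 and 0.12. Low-iron 3 was the highest library for 9 members, high-iron 2 for 9 and high-iron 8 for 10, and control 5 was the lowest for 19.

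EIF1AY, a gene on chromosome Y, was listed at 0 in low-iron 3, control 5 and high-iron 2 and 8 and lay between 15.0 and 26.5 FPKM in the other 5 libraries. The libraries with EIF1AY at 0 were thus 1 of 3 in the low-iron and control groups and 2 of 3 in the high-iron group, and they included the 3 libraries with the highest medians and the one with the lowest. Among the libraries with EIF1AY above 0, the median difference of the members was 0.24 for high-iron against control (1 pig against 2, 25 of 35 above 0, and 65.4% of all genes), 0.51 for high-iron against low-iron (1 against 2, 31 of 35, and 61.1% of all genes) and -0.18 for low-iron against control (2 against 2, 10 of 35, and 51.6% of all genes). Among those at 0, it was 1.04 for high-iron against control (2 against 1, 32 of 35, and 63.3% of all genes), 0.06 for high-iron against low-iron (2 against 1, 20 of 35, and 46.9% of all genes) and 1.00 for low-iron against control (1 against 1, 34 of 35, and 65.0% of all genes). Over all genes the medians, in the same order, were 0.13, 0.11 and 0.01 with EIF1AY above 0, and 0.15, -0.03 and 0.19 at 0. With 1 or 2 pigs on a side, these values carry no test. The last comparison sets low-iron 3 against control 5, the libraries with the highest and the lowest median deviation of the members. The 1.04 for high-iron against control likewise has control 5 as its only control library. With EIF1AY as a covariate the median for high-iron against control was 0.50, against 0.12 over all genes, and 3 members were called, with 192 called among all genes. MMP2, set beside EIF1AY after its values were seen, was at 2.56 to 8.41 FPKM in the libraries with EIF1AY at 0. It was at 3.51 FPKM in high-iron 7 and at 13.3 to 29.8 FPKM in the other libraries with EIF1AY above 0. The part of EIF1AY in the results was not tested beyond the covariate fit.

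**Figure D4:**
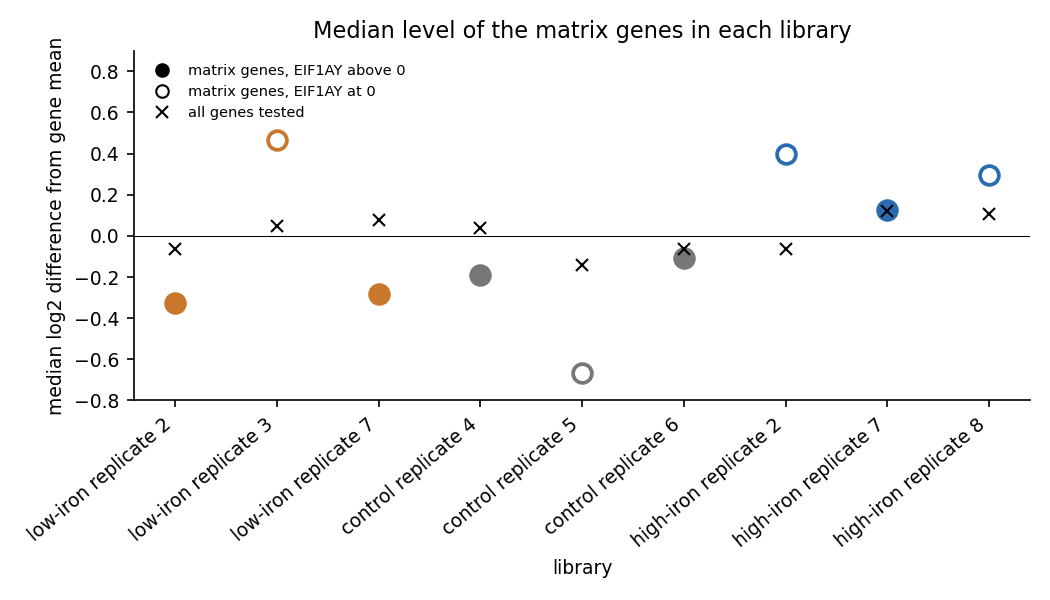
For each library (horizontal axis), the median over the 35 matrix genes of log2(FPKM + 0.1) minus the gene's mean (circles, coloured by group, open where EIF1AY was at 0) and the same median over all genes tested (crosses). Low-iron 3 and the 3 high-iron libraries lie above 0, and control 5 is lowest at -0.67.

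Other genes of the matrix were read from lists of general knowledge. Their counts in high-iron against control stand beside 65.0% of all genes above 0, 5.59% with an unadjusted p under 0.05 and 1.57% called, and the same holds for the cell markers. Of 20 tested genes that fold, modify and trim collagen, 17 had a log2 fold change above 0 in high-iron against control, with a median of 0.30, 4 had an unadjusted p under 0.05 and 2 were called. FKBP10, a collagen chaperone, had 1.09 (SE 0.44, limma p 0.0303, adjusted p 0.892), with 1.16, 0.401 and 0.692 FPKM in the control and 1.53, 1.08 and 2.42 in the high-iron pigs. It was also called against low-iron, at 1.12. PCOLCE, the enhancer of the protease that trims procollagen, had 1.26 (SE 0.39, limma p 0.00800, adjusted p 0.885). At 6.44, 7.14 and 2.03 FPKM in the control pigs it was lower than in all low-iron (9.10 to 11.2) and all high-iron pigs (10.4 to 12.2), and it was called in low-iron against control as well, at 1.10. FKBP10 was thus called for the high-iron group against both others, and PCOLCE for the low-iron and the high-iron group against control.

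Of 12 laminin and basement membrane genes, 11 were above 0 and LAMA4, a laminin chain of vessel walls, was called in high-iron against control, at 1.06 (SE 0.43, limma p 0.0334, adjusted p 0.892). Of 16 other proteases and inhibitors, 15 were above 0 and SERPINE2, a serine protease inhibitor, was called at 1.04 (SE 0.38, limma p 0.0197, adjusted p 0.889), while MMP11 was called in low-iron against control, at 1.05. Of 24 other glycoproteins and proteoglycans 22 were above 0, and SPP1, or osteopontin, was called against low-iron, at 1.02, with 0.87 against control. No gene was called among 5 tested of 28 other collagens, 16 of the TGF-beta pathway and 11 collagen and matrix receptors. Under the fold threshold, 2 genes of the pathway and 2 receptors had an unadjusted p under 0.05 in high-iron against control. ITGB5, a receptor named here after its value was seen, had 0.83 (SE 0.20, limma p 0.00156, adjusted p 0.885). It was at 21.8 to 34.3 FPKM in the high-iron, 14.3 to 16.9 in the control and 13.7 to 16.8 in the low-iron pigs. All 11 receptors were above 0 in high-iron against control. In low-iron against control, PCOLCE and MMP11 were the only called genes of these 7 lists. TGFBR1, a receptor for TGF-beta named here after its values were seen, was at 3.82 to 4.10 FPKM in the low-iron pigs. It was at 5.43 to 6.52 FPKM in the control and 5.62 to 8.09 in the high-iron pigs, without a call.

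In bulk liver, fewer cells of a type and less RNA per cell cannot be told apart. ALB, the albumin gene of hepatocytes, was at 46231 to 74134 FPKM. Of 13 tested rows of hepatocyte markers, led by ALB and FGB, 4 were above 0 in high-iron against control, with a median of -0.07, and 0 were called. CPS1, a urea cycle enzyme named here after its value was seen, had -0.88 (SE 0.24, limma p 0.00416, adjusted p 0.885), and the hepatocyte sums were 77854 to 88850 FPKM in the low-iron, 79934 to 100759 in the control and 76156 to 89968 in the high-iron pigs. Of 14 tested stellate cell markers, 9 were above 0 in high-iron against control and RGS5 was called, at 1.16 (limma p 0.0114, adjusted p 0.885). RGS5 was at 3.40 to 10.9 FPKM in the control, 11.5 to 16.2 in the low-iron and 12.9 to 18.9 in the high-iron pigs. Its log2 fold change was 0.96 for low-iron against control, under the fold threshold, and 0.20 for high-iron against low-iron. The summed FPKM of the stellate list was 89.8 to 92.5 in the low-iron, 75.3 to 86.0 in the control and 79.2 to 89.3 in the high-iron pigs, so high-iron overlapped with control. COLEC11 and RGS5 were the highest of the list, and 1 marker was at 0 in all libraries. Of 8 portal fibroblast markers, among which THY1 and CLEC3B were the highest, 7 were above 0 and DPT was called, at 1.05, with sums of 94.0 to 114, 92.0 to 112 and 106 to 120 FPKM. Of 11 smooth muscle markers, led by CALD1 and TPM2, 10 were above 0 and none was called, with sums of 174 to 252, 166 to 228 and 187 to 223 FPKM.

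VWF was the called endothelial marker and LYZ the called macrophage marker in high-iron against control. Of 9 markers of endothelium outside the sinusoids, 8 were above 0, 5 had an unadjusted p under 0.05 and VWF, the von Willebrand factor gene, was called at 1.68 (SE 0.52, limma p 0.00895, adjusted p 0.885). Their summed FPKM, to which PECAM1 and PLVAP gave most, was 136 to 151 in the low-iron, 132 to 149 in the control and 170 to 212 in the high-iron pigs, without overlap. Of 10 macrophage markers, led by CD5L and CD14, 8 were above 0, 6 had an unadjusted p under 0.05 and LYZ was called. LYZ had 3.13 on the log2 scale (SE 1.27, limma p 0.0318, adjusted p 0.892). With control 4 and 5 listed at 0, its size depends on the 0.1 added to the FPKM. LYZ was at 1.59 FPKM in control 6 and at 5.37, 0.287 and 5.31 in the high-iron pigs, so these groups overlapped. The low-iron pigs were at 1.57, 3.86 and 0.567 FPKM. The other macrophage markers with an unadjusted p under 0.05 were CD163 (0.57), CD68 (0.54), CSF1R (0.59), VSIG4 (0.61) and ADGRE1 (0.76). They are named here after their values were seen. In this order the limma p was 0.00651, 0.00882, 0.00612, 0.00287 and 0.0318, with an adjusted p of 0.885, or 0.892 for ADGRE1. In each, every high-iron pig lay above every control pig, as for 9.14% of all genes. CD5L and CD14 themselves had -0.22 and -0.07. The macrophage sums were 703 to 826, 659 to 754 and 717 to 789 FPKM and overlapped, with CD5L and CD14 giving most of each sum. Of 7 sinusoidal endothelial markers, led by OIT3 and CLEC4G, 6 were above 0 and 1 had an unadjusted p under 0.05, with sums of 205 to 281, 193 to 237 and 211 to 282 FPKM. The part of these cell types in the collagen differences was not tested.

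Of the remaining lists, 5 of 7 bile duct markers, led by SPP1 and ANXA4, were above 0 in high-iron against control, with sums of 35.7 to 80.4, 24.6 to 56.7 and 47.5 to 73.3 FPKM, and none was called. Of 8 mesothelial markers, 7 were matched, of which 1, KRT19, passed the filter and 6 fell below it, CALB2 among them at 0 in all libraries, so most of that list was near or at 0, with sums of 1.69 to 4.14, 0.745 to 5.44 and 2.91 to 4.03 FPKM. GPM6A was the other of the highest in that list. Of 8 B and plasma cell markers, led by XBP1 and JCHAIN, 4 were above 0 against control, and JCHAIN was called against low-iron, at 1.15. KRT19, DES and SPP1 each stand in 2 of the lists.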

How the data were processed

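Poly(A) RNA of 9 livers was sequenced, and the authors cleaned the reads, aligned them to Sscrofa11.1 with HISAT2 and assembled them with StringTie. The authors deposited 1 table of FPKM per gene and library, with no scaling between libraries stated. Groups came from the sample titles through the series' design text. Numbered genes (20660; 5258 were new) were named by their serial number in release 106 of NCBI's pig annotation.

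The 12584 genes whose mean reached 0.5 FPKM were analysed on the log2(FPKM + 0.1) scale. Limma 3.58.1 in R 4.3.3 fitted the 3 groups across all 9 libraries with a trend in the empirical Bayes step, after a test of the procedure on simulated data. The study used a count model, which FPKM does not allow. Adjusted p-values are Benjamini-Hochberg values over all genes tested. The pigs are separate animals, and p-values set a group difference against the spread between pigs within groups, which limma moderates over all genes tested. Deviations of same-numbered low-iron and high-iron pigs had correlations of 0.018 for animals 2 and 0.021 for animals 7. Pigs of unlike number had -0.159 (low-iron 7 with high-iron 2) and 0.080 (low-iron 2 with high-iron 7). The main fit used the number only as a name, and these pairs are too few to show whether same-numbered pigs are related.

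The members, the lists of other matrix genes and cell markers, and the alternatives were chosen with earlier results of these data known. Fold changes are given for members called in a comparison, for COL1A1, COL1A2, COL3A1, COL4A1, DCN, LUM, TIMP1, MMP2 and ACTA2 in high-iron against control, for TIMP1 and COL4A4 in every comparison, and for other members where the text says that they were named after their values were seen. Of the marker lists, called genes and the 2 highest were named. Other genes of the lists were named after their values were seen, where the text says so. Sequences and positions were read from the NCBI Sscrofa11.1 genome by coordinates in Python 3.11.15 with pandas 2.3.3 and numpy 2.4.6, and matplotlib 3.10.9 drew the plots. The alternatives were pseudocounts of 1 and 0.01, 3 other scalings (quantile normalization, median-of-ratios and TPM), no filter or one at a mean of 1 FPKM, array quality weights, fits without the group outside the comparison, EIF1AY as a covariate, a block for the animal number, and fits without 1 library each. Serum values were not analysed here.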

Additional observations from a re-analysis of the deposited data

How the results depend on the processing

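No alternative gave a member an adjusted p under 0.05 by limma with Benjamini-Hochberg adjustment, and the unadjusted calls are those the report gives. The median of the members kept its sign in all comparisons and alternatives, and for high-iron against control it lay between 0.34 without control 5 and 0.82 without high-iron 7. Called members in that comparison were 2 with a pseudocount of 1 and 2 with median-of-ratios scaling, and 3 without high-iron 8 to 7 without control 4 or control 6. Over all genes, 197 were called there, and 74, 153, 212, 296 and 217 in these settings in turn. For high-iron against low-iron, leaving out a library gave medians from 0.27 without low-iron 7 to 0.68 without low-iron 3, and 2 to 5 called members, the most without low-iron 3, with 333 genes called over all in place of 194. The fit with the animal number as a replicate block, over low-iron 2 and 7 and high-iron 2 and 7 only, gave a median of 0.69 and 7 called members, with 457 genes called over all. Like the fit that gave 0.68, it holds no value of low-iron 3. The block changed no call of COL1A1, COL1A2 or TIMP1 in this comparison. For low-iron against control, leaving out a library gave 0 to 2 called members, with 2 without low-iron 7, where 121 genes were called in place of 111.

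Of 439 alternative values of 23 named fold changes, 400 kept their direction and side of the thresholds, 18 lost and 11 gained a call, and 10 changed sign. Many of the 400 were fixed in advance. A fold change cannot move with another filter, with a fit of only the groups compared, or without a library of the third group. Values that were uncalled and stayed so count among the 400 too, so the count is no measure of robustness. The changes of sign were in ACTA2 for high-iron against control (-0.12 with array quality weights, and -0.14 without control 5 to 0.79 without high-iron 8), TIMP1 for low-iron against control (-0.13 with weights, and between -0.44 without low-iron 3 and 0.44 without control 6) and COL4A4 (-0.0018 without high-iron 8 to 0.76 without control 4 for high-iron against control, and -0.45 without control 5 to 0.29 without control 4 for low-iron against control, with 0.01 without low-iron 2 and -0.51 with weights). The cause of these changes was not tested. With 3 pigs a group and no read counts, the precision of genes under 1 FPKM is unknown beyond the spread between pigs.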
